A study of Mus musculus with 2 samples.

Results

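The 10 genes described here are ones that astrocytes use for their main tasks in the brain, and they were followed through the open chromatin of mouse frontal cortex. They were taken by their GENCODE M21 symbols (assembly GRCm38/mm10) and are Slc1a2, Slc1a3, Glul, Aqp4, Gja1, Gjb6, Aldh1l1, Aldoc, Gfap and S100b, 10 of 21938 protein-coding genes on chromosomes 1 to 19, X and Y. All 10 symbols were found. For each gene the peaks and footprints in the gene body and in 20 kb on either side were read, separately in each library.

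Astrocytes are glial cells that take up glutamate and potassium released by neurons, return glutamine to them, pass water and small molecules through channels, and supply metabolites. Slc1a2 and Slc1a3 encode the glutamate transporters GLT-1 and GLAST, and Glul encodes glutamine synthetase, which turns the glutamate taken up into glutamine. Aqp4 encodes the water channel of astrocyte endfeet, and Gja1 and Gjb6 encode connexins 43 and 30, the subunits of astrocyte gap junctions. Aldh1l1 encodes a folate enzyme and Aldoc a glycolytic aldolase, both widely used as astrocyte markers, while Gfap encodes an intermediate filament protein and S100b a calcium-binding protein.

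DNase-seq was used, which reads open chromatin from the places where the enzyme DNase I has cut the DNA. Frontal cortex came from female B6CASTF1/J mice, an F1 cross of B6 and CAST, 10 days old, and no treatment is named. The labels call the 2 libraries biological replicates 1 and 2 of 1 group and give both the same donor identifier. Both are also marked "3x", which the labels do not explain. With 1 group of 2 libraries, nothing was tested between conditions, and the spread quoted is that between these libraries.

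In the longer of the 2 peak lists of each library, which is used throughout, replicate 1 had 104654 peaks and replicate 2 had 81654. They had 293484 and 187137 footprints. A footprint is a short stretch within open chromatin with fewer cuts than its surroundings. Read depth was not given in the tables used and is unknown here. Peak signal is given as deposited by the authors, without a stated scaling. Over 61026 peaks paired 1 to 1 the signal of replicate 1 was lower than that of replicate 2 by a median log2 difference of -0.25 (SD 0.32). Of 4 genes of liver, muscle and posterior body (Alb, Apoa1, Myh1, Hoxa9), 0 had an open promoter in either library. Of 4 markers each, 4 and 3 excitatory neuron, 3 and 3 inhibitory neuron, 3 and 3 oligodendrocyte lineage, 1 and 1 microglia and 3 and 1 endothelial promoters were open in replicates 1 and 2. The tissue is a mixture of cells, so fewer astrocytes and less accessibility per astrocyte cannot be told apart.

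A promoter was called open where a peak of the longer list lay no more than 500 bp from 1 of the start sites annotated for the gene. By that rule 10 of 10 astrocyte genes were open in replicate 1, 8 in replicate 2 and 8 in both, where 66.1%, 63.3% and 62.8% of all protein-coding genes were open. Glul had the strongest promoter, at 5.69 in replicate 1 and 6.56 in replicate 2. A middle group followed, with Gfap at 1.80 and 2.45, Slc1a2 at 1.74 and 1.84 and Aldoc at 1.57 and 2.02. S100b stood at 0.891 and 1.17 and Slc1a3 at 0.818 and 1.08. Gja1, at 0.578 and 0.632, and Gjb6, at 0.438 and 0.395, were lower in both libraries than those 6 genes. Aldh1l1 (0.620) and Aqp4 (0.406) had a promoter peak in replicate 1 only, in both cases at a start site inside the gene.

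In that order by mean signal, the ranges of the 2 libraries did not overlap between Glul and Gfap, between Aldoc and S100b, between Slc1a3 and Gja1, or between Gja1 and Gjb6. They overlapped for the other neighbouring pairs. These ranges thus did not settle the order within Gfap, Slc1a2 and Aldoc, of S100b and Slc1a3, or of Gjb6, Aldh1l1 and Aqp4. Nor did they settle that of Gja1 and Aldh1l1, since Aldh1l1 (0.620) was above Gja1 (0.578) in replicate 1 and had no promoter peak in replicate 2. Read library by library, Gfap was above Slc1a2 and Aldoc, S100b above Slc1a3, and Gjb6 above Aqp4 in both. Slc1a2 and Aldoc changed places between libraries, as did Gjb6 and Aldh1l1. The Glul promoter was stronger than 78.0% and 77.8% of all open promoters. Each of the other members lay below the median of all open promoters in both libraries, which was 3.13 and 3.73, and the members' own medians were 0.854 over 10 open promoters and 1.51 over 8.

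**Figure D1:**
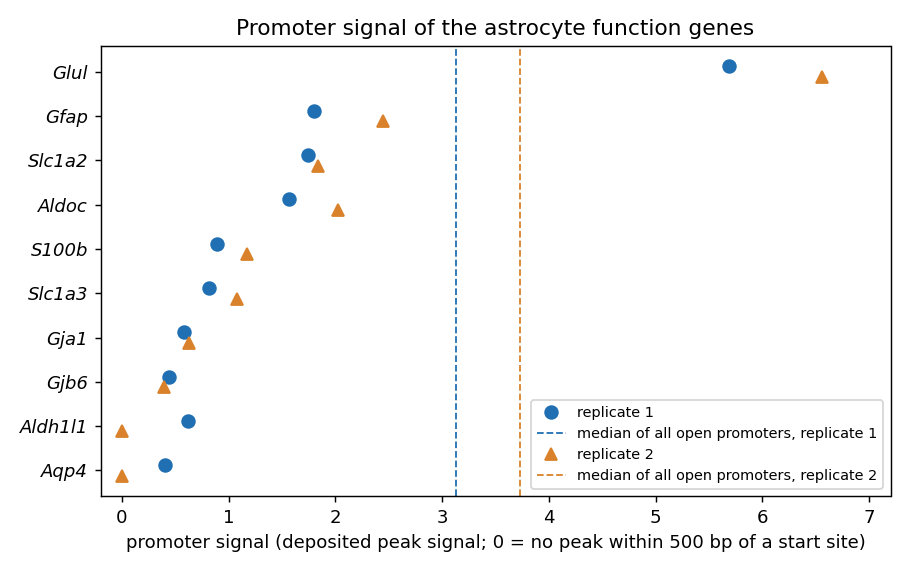
Promoter signal (the deposited signal of the strongest peak within 500 bp of a start site) of the 10 genes in replicate 1 (circles) and replicate 2 (triangles), ordered by mean, with dashed lines at the medians of all open promoters, 3.13 and 3.73. Only Glul lies to the right of both lines, and the points of Aldh1l1 and Aqp4 at 0 stand for no peak in replicate 2.

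The content of CpG dinucleotides at the gene starts varied among the members. In the 300 bases from 250 before to 50 after the annotated gene start, the ratio of observed to expected CpG ranged from 0.0972 in S100b to 0.61 in Slc1a2, with a median of 0.311 against 0.525 over all protein-coding genes. Slc1a2, Glul (0.583) and Gja1 (0.557) lay above the median of all genes and the other 7 below it. Slc1a3 (0.375) and Aldh1l1 (0.367) were intermediate, while Aldoc (0.108), Gfap (0.213), Aqp4 (0.226) and Gjb6 (0.255) lay at the low end. Of the 9843 genes whose ratio lay in the range of the members, 50.6% and 46.3% had an open promoter, and the median signal of those that were open was 1.68 and 2.14. Against that set the members' medians of 0.854 and 1.51 were still the lower values in both libraries.

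Glutamate uptake and recycling came first among the roles. Slc1a2 (chr2:102658659-102790784, plus strand) had 12 peaks in each library, of which 9 were shared, that is, overlapped a peak of the other library by at least 1 bp. Several of them formed a broad open stretch over the gene start, with the peak just upstream of it at 1.29 and 1.84 and the wider peak over it at 1.74 and 1.77. A further start site 16802 bp into the gene carried a peak of 0.891 and 1.12. Its intronic peaks were weaker, with 0.458 to 0.839 in replicate 1 and 0.586 to 0.812 in replicate 2. The strongest peak over 1000 bp from every start site, called distal here, had 0.839 in replicate 1 and 1.14 in replicate 2, below the promoter in both. In replicate 2 the strongest was an upstream peak at -9345 bp from the gene start, which replicate 1 had at 0.807.

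Slc1a3 (chr15:8634124-8710764, minus strand) differed from Slc1a2 in where its strongest signal lay. Its start carried a single peak of 0.818 and 1.08, and its introns had shared peaks of 1.28 and 1.20 near the start and of 1.20 and 1.43 further in. The strongest peaks lay beyond the 3′ end of the gene, where 4 peaks were present in both libraries. From the gene end outward they had 0.823 and 1.32, 2.56 and 3.68, 1.78 and 2.11, and 1.18 and 0.812 in replicates 1 and 2. The outermost of these was the only one of the 4 that was higher in replicate 1, with the highest log2 difference among the members' paired peaks (0.54). The strongest of them is printed below because it exceeded the gene's own promoter 3.13-fold and 3.40-fold. Here and below, capitals mark bases under a footprint in both libraries, and the sequences are those of the GRCm38.p6 reference, so they do not show the CAST allele.
Slc1a3 downstream, chr15:8629301-8629520, plus strand: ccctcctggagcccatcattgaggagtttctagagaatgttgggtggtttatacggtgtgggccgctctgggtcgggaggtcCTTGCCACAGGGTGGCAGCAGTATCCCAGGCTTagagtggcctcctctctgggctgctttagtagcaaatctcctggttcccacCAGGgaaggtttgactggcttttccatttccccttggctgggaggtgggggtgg
In this 220-base peak 73 and 40 bases lay under footprints in replicates 1 and 2, 37 of them in both. The capitals hold the word CCACAGGGTGGC, which is 1 mismatch from the core of the site bound by CTCF, a zinc-finger protein that marks chromatin boundaries and loop anchors.

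Glul (chr1:153899944-153909723, plus strand) had 2 peaks in both libraries and 3 weak ones, of 0.469 to 0.490, in replicate 1 alone. The peak at the start reached 5.69 and 6.56. It carried 6 footprints in replicate 1, where it was 160 bp wide, and 9 in replicate 2, where it was 300 bp wide. Further footprints of replicate 1, which overlapped those of replicate 2, lay just outside its narrower peak. The start of the microRNA gene Mir8114 lies in the same peak, so the signal cannot be assigned to 1 of the 2 genes. The other shared peak lay at -4823 and -4833 bp and had 2.23 and 2.95, which is 0.392 and 0.450 of the promoter signal. The sequences shown are 30 bases upstream of the gene start that hold a footprint present in both libraries, and the reference sequence of the upstream peak.
Glul start, chr1:153899884-153899913, plus strand: caaggcgactggGGGCGGGCACAagctgtc
Glul upstream, chr1:153895021-153895220, plus strand: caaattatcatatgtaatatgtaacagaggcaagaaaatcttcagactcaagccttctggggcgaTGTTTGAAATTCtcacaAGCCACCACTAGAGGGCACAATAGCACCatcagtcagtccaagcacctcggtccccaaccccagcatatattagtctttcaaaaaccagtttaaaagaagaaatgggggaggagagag
The 30 bases at the start are within an annotated exon of a transcript of the neighbouring gene Teddm2. Their capitals cover GGGCGG, the letters of the SP/KLF box, at -45 bp from the Glul start. In the upstream peak the longer run of capitals covers CCACTAGAGGGC, an exact match to the CTCF core.

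Aqp4 was 1 of the 2 members with no peak at its annotated gene start in either library. The gene lies at 15389496-15410982 on chromosome 18, minus strand. Within 500 bp of its gene start, 0 bases were listed in the table of cut rates of either library. The promoter peak of 0.406 counted in replicate 1 was at an internal start site 7336 bp into the gene. Its strongest peak was intronic, 5681 bp from the gene start, and was present in both libraries at 0.995 and 1.26. A weaker intronic peak 3931 bp from the start had 0.620 and 0.541. The astrocyte water channel gene thus had 2 shared peaks, both inside the gene, and few footprints, with 6 in replicate 1 and 2 in replicate 2.

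Gjb6 (chr14:57123303-57133611, minus strand), the connexin 30 gene, had the weakest promoter of those open in both libraries, at 0.438 and 0.395. That promoter peak was stronger than only 4.25% and 1.16% of all open promoters and held 0 footprints in both libraries. Of its 5 and 4 window peaks 2 were shared. The strongest peak of its window belonged to the start of a neighbouring gene, Gm4491, at 0.891 and 1.23. A peak at the start of Gjb2, the gene of connexin 26 next to it, was listed in replicate 1 alone, at 0.651. The only distal peak, 0.641 at 24225 bp from the gene start, was also present in replicate 1 alone.

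Gja1 (chr10:56377330-56402513, plus strand), the connexin 43 gene, had low signal spread over its first 2 kb. In replicate 1 its start-site peaks had 0.443, 0.297, 0.349, 0.563 and 0.578, and in replicate 2 they had 0.632, 0.474, 0.620 and 0.575. The last 2 in each library overlap each other and so are not separate sites. All 6 peaks of replicate 1 and all 5 of replicate 2 were shared. Its strongest peak lay 8019 bp upstream of the gene and had 1.22 and 1.56, above the promoter 2.11-fold and 2.46-fold. It was the only distal peak of the gene in either library, and is printed for that reason.
Gja1 upstream, chr10:56369221-56369400, plus strand: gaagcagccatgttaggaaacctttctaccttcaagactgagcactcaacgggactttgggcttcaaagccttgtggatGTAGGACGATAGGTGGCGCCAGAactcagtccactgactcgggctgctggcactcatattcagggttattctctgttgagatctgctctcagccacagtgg
Of its 180 bases, 29 and 33 lay under footprints in replicates 1 and 2 and 23 in both, as 1 continuous run. None of the 18 consensus sequences searched matched within that run.

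The metabolic markers Aldh1l1 and Aldoc had different layouts. Aldh1l1 (chr6:90486427-90600203, plus strand) had the most peaks of all members, 20 in replicate 1 and 15 in replicate 2, and 15 were shared in each. It had no peak at its annotated gene start, where 0 bases within 500 bp were listed in the table of cut rates of either library. The promoter peak of replicate 1 (0.620) lay at an internal start site 64321 bp into the gene. That place was listed in the table of replicate 2 with a lowest false discovery rate of 0.0463. Its signal lay in introns. From 5′ to 3′, 5 intronic peaks exceeded 1.5 in both libraries, with 1.93 and 3.65, 2.38 and 3.11, 1.56 and 2.32, 2.60 and 3.68, and 1.67 and 2.71 in replicates 1 and 2. All 5 were higher in replicate 2. The first of them, 20624 bp from the gene start, had the largest difference between libraries of the members' 49 paired peaks, at a log2 difference of -0.92, where the median over all paired peaks was -0.25. The start of Slc41a3, a magnesium transporter gene just downstream, had 2.50 and 3.02.

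4 of these intronic elements are printed, in the order in which they lie in the gene. Those with a CTCF-like word are given on the strand that reads it.
Aldh1l1 intron A, chr6:90506941-90507160, plus strand: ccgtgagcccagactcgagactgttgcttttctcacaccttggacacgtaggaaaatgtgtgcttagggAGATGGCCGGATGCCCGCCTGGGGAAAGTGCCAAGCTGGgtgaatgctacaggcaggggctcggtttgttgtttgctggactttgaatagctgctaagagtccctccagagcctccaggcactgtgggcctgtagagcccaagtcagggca
Aldh1l1 intron B, chr6:90515141-90515320, minus strand: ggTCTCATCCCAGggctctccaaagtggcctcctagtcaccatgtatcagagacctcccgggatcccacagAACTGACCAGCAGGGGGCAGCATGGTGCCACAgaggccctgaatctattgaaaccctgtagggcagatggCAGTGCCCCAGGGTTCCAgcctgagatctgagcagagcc
Aldh1l1 intron C, chr6:90538061-90538240, minus strand: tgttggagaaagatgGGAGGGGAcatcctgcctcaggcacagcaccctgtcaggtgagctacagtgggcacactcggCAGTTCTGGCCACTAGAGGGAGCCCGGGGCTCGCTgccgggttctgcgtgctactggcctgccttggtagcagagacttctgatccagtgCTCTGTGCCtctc
Aldh1l1 intron D, chr6:90575461-90575660, minus strand: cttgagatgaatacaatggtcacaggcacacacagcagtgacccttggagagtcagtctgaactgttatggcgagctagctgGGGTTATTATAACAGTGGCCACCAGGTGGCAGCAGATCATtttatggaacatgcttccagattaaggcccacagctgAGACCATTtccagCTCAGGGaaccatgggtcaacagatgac
In A, 39 bases in 1 run were covered in both libraries, and the run holds on the opposite strand TTGGCA, the single-arm site of NFI factors, at 20614 bp from the gene start. NFI factors are regulators of astrocyte development. B, C and D hold words within 1 mismatch of the CTCF core, CCAGCAGGGGGC, CCACTAGAGGGA and CCACCAGGTGGC, each with all 12 bases under footprints in both libraries. The intronic peak between B and C, at 48784 bp in replicate 1, held a SOX-type word (ACAAAG). A footprint covered 0.667 of this word in each library, but from opposite ends, so only its middle bases were covered in both.

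Aldoc (chr11:78322968-78327781, plus strand) had a compact pattern, with its own shared peaks at 2 start sites. The first had 1.57 and 2.02 and the second, 1203 bp into the gene, had 1.15 and 0.992. The peak of replicate 1 extended further upstream than that of replicate 2. The strongest peak in its window belonged to the start of another gene, Pigs, at 5.44 and 6.02. The start of Unc119, at 1.67 and 1.77, was above the Aldoc start in replicate 1 and below it in replicate 2. Its single distal peak, of 0.531, was present in replicate 1 alone. The 87 bases before the gene start are shown because they hold a footprint found in both libraries. They lie inside the peak of replicate 1 and outside that of replicate 2, where the footprint was not in a peak.
Aldoc start, chr11:78322881-78322967, plus strand: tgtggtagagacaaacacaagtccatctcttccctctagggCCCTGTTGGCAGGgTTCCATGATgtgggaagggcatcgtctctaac
Here 22 bases were covered in both libraries. The first run of capitals holds TTGGCA, the single-arm NFI site, at -38 bp from the gene start.

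Gfap (chr11:102887336-102900912, minus strand), the filament gene, had 1 promoter peak of 1.80 and 2.45 just upstream of its start. 3 peaks inside the gene were shared, with 0.995 and 1.03 in an intron, 1.05 and 1.08 over an exon, and 0.635 and 0.925 over an exon near the 3′ end. The last of these differed more between libraries (log2 -0.54) than the other two and than the promoter peak (log2 -0.45). The strongest peak of its window was the start of Ccdc103, a cilium gene, at 4.13 and 5.94. The reference sequence of the promoter peak outside the annotated exon follows, on the strand opposite to the gene, which reads the CTCF core.
Gfap start, chr11:102900913-102901100, plus strand: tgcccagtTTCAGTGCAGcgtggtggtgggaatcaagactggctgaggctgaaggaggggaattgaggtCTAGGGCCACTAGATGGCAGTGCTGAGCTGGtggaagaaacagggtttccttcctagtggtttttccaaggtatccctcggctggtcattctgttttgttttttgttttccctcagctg
Footprints covered 61 and 50 of its 188 bases, 41 of them in both libraries. The longer run holds CCACTAGATGGC, an exact match to the CTCF core, centred at -82 bp. Of the 300-base gene start windows of all protein-coding genes 0.67% held that core, and Gfap was the only member to do so.

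S100b (chr10:76253853-76261159, plus strand), the calcium-binding protein gene, had few peaks. The promoter had 0.891 and 1.17. The start of Prmt2, an arginine methyltransferase gene upstream, gave the strongest peak of the window at 4.03 and 4.38. A weak intronic peak of 0.536 was listed in replicate 1 alone and was its only distal peak. Its promoter held 3 and 2 footprints.

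**Figure D2:**
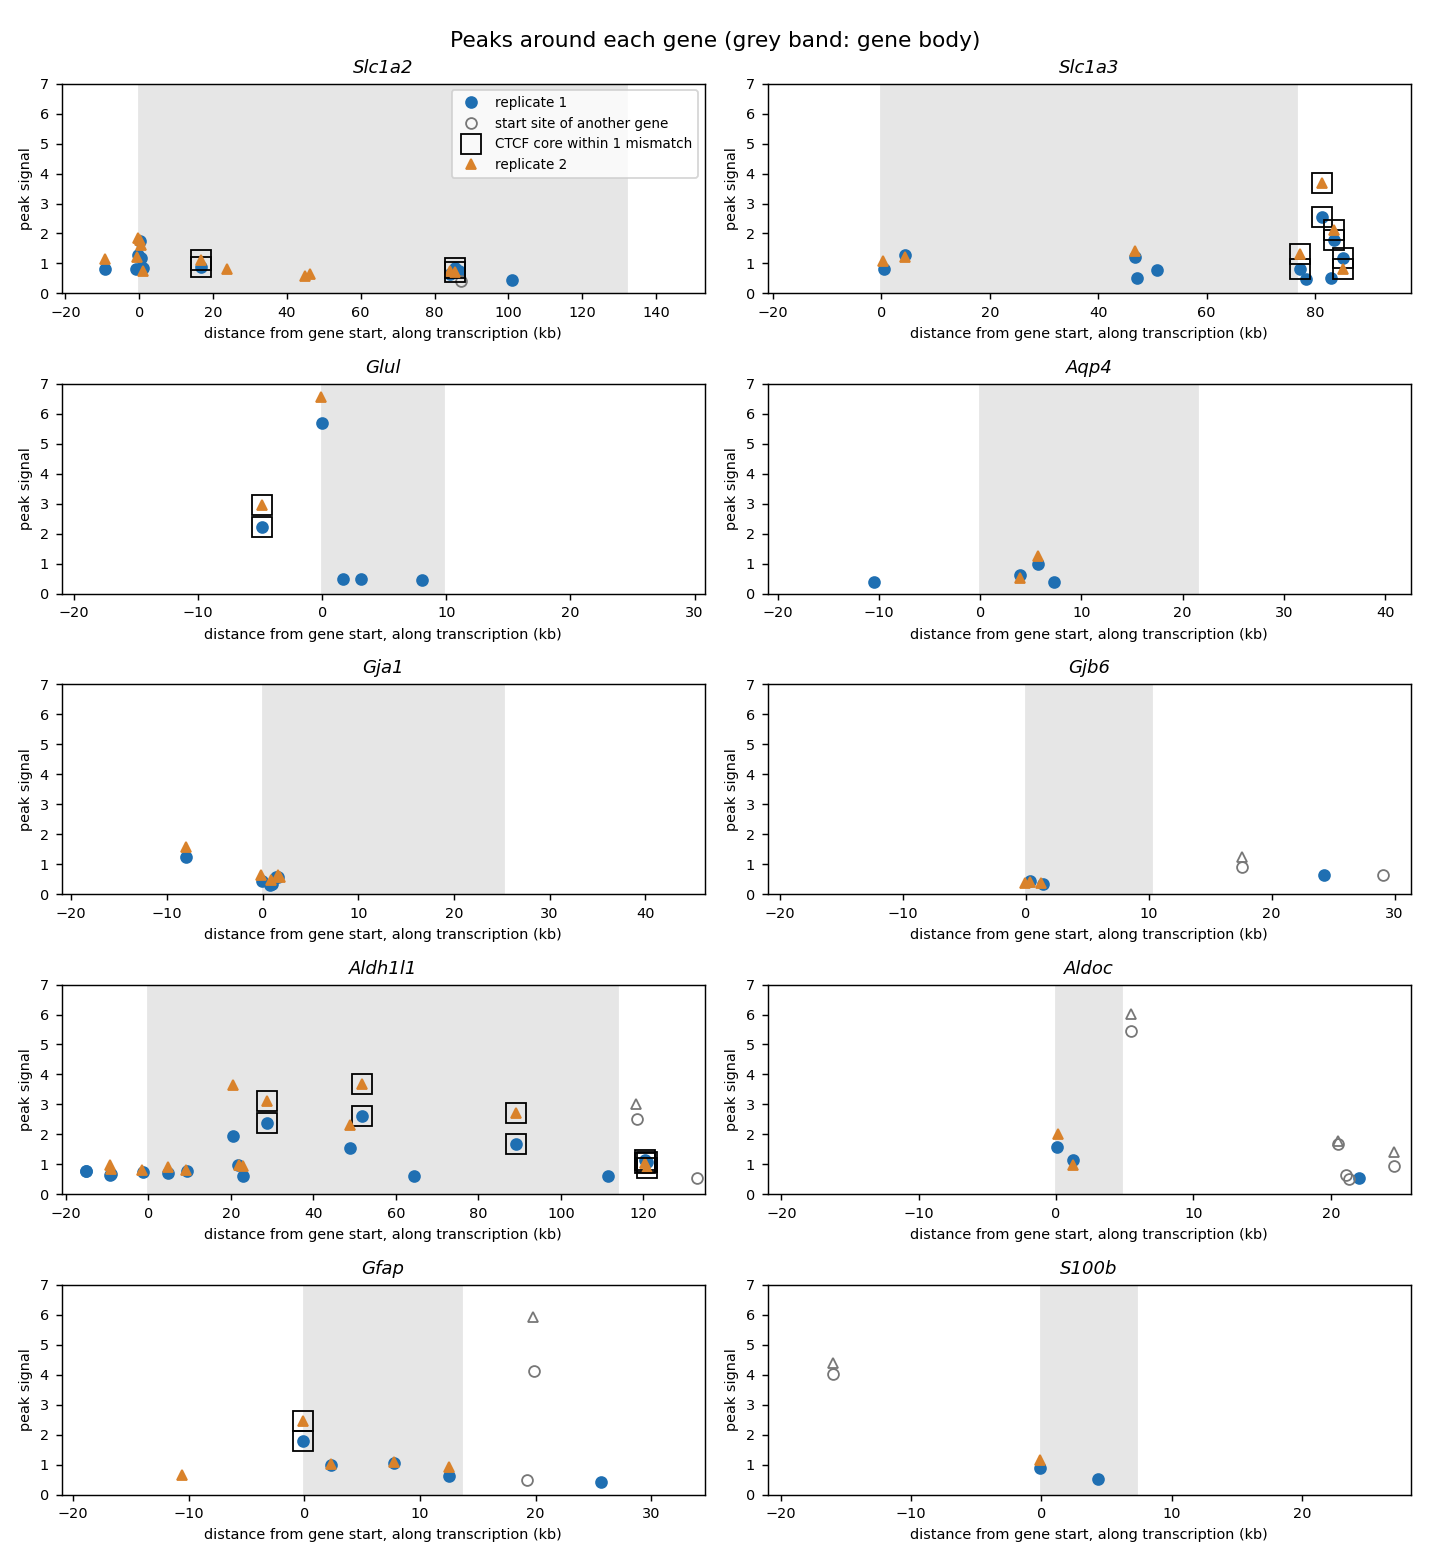
Signal of every peak of the longer lists (vertical axis, deposited signal) against its distance in kb from the gene start along transcription, 1 panel a gene, with replicate 1 as circles, replicate 2 as triangles, the gene body as a grey band, peaks at other genes' start sites as open grey marks and peaks with a footprinted word within 1 mismatch of the CTCF core boxed. The highest points of Glul are at its start (5.69 and 6.56), whereas those of Aldh1l1 (2.60 and 3.68) are in its introns and those of Slc1a3 (2.56 and 3.68) lie beyond its end.

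Signal thus sat at the promoter in some members and away from it in others. In 4 members, Slc1a3, Aqp4, Gja1 and Aldh1l1, the strongest distal peak exceeded the promoter in both libraries, and in Gjb6 it did so in replicate 1 only. That made 5 of 10 in replicate 1 and 4 of 10 in replicate 2, where 30.8% and 30.2% of all protein-coding genes showed it, with 26.7% in both libraries. The count was obtained after the values had been seen. With flanks of 100 kb it became 7, adding Gjb6, S100b and Aldoc, and the share of all protein-coding genes became 44.2%. It fell to 3, without Aqp4, with a promoter window of 2000 bp and for distal peaks over 2500 bp from every start site. With no flank it was also 3, without Gja1. The share of all genes was not obtained for these settings. In replicate 2 Aqp4 and Aldh1l1 had no promoter peak, so their distal peaks were set against 0. The 8 members with a peak within 500 bp of the annotated gene start itself, 8 in replicate 1 and 8 in replicate 2, compare with 60.9% and 58% of all genes. At least 1 distal peak was present around 10 members in replicate 1 and 7 in replicate 2, against 73.3% and 67.4% of all genes.

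**Figure D3:**
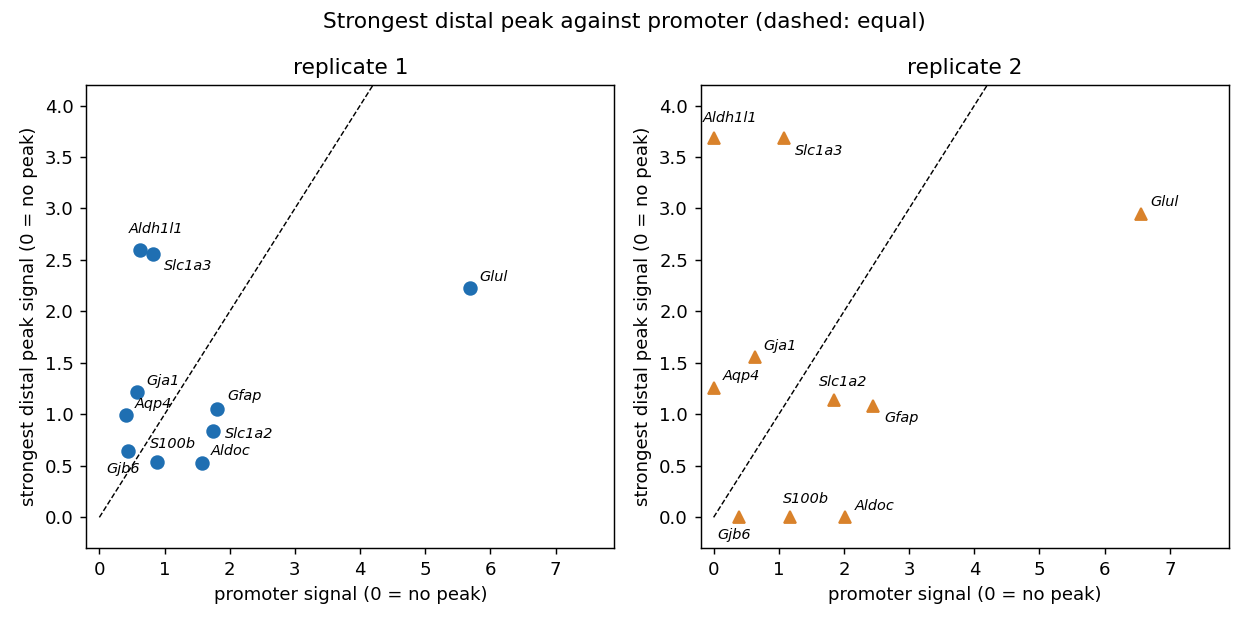
Signal of the strongest distal peak (vertical axis) against promoter signal (horizontal axis) for the 10 genes, replicate 1 on the left and replicate 2 on the right, with 0 for no peak and a dashed line at equality. Slc1a3, Aqp4, Gja1 and Aldh1l1 lie above the line in both libraries and Glul lies far below it.

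The density of distal peaks varied widely among the members. The Aldh1l1 window had 17 and 14 distal peaks, or 11.1 and 9.1 per 100 kb, a density above that of 94.3% and 96.5% of all protein-coding genes. These include flank peaks inside Slc41a3 in both libraries and overlapping peaks inside the neighbouring gene Klf15 in replicate 1. Several of the intronic ones also lie inside the annotated gene Gm45901. Slc1a3 had 8.57 and 5.14 per 100 kb and Gfap 7.47 in both libraries, so that Slc1a3 came second in replicate 1 and Gfap in replicate 2. The equal Gfap values include an unshared flank peak inside a neighbouring gene, a different one in each library (0.432 in replicate 1 and 0.643 in replicate 2). Aqp4 had 4.88 and 3.25, Glul 4.02 and 2.01, and Slc1a2 2.9 and 3.49 per 100 kb. Gja1 had 1.53 in both, and Aldoc, S100b and Gjb6 had 1 distal peak each in replicate 1 and 0 in replicate 2. The members' median was 3.46 and 2.63 per 100 kb, beside 2.36 and 1.95 over all protein-coding genes. A value above that of all genes was not particular to the members. The 4 genes of liver, muscle and posterior body had 3.37 and 2.59. Medians were 7.5 and 4.08 for the excitatory neuron markers, 5.5 and 5.83 for inhibitory neuron and 5.28 and 5.46 for oligodendrocyte lineage. Those of microglia had 5.13 and 4.01 and those of endothelial cells 4.13 and 1.79. For the mean of both libraries the medians of the members and of all genes were 3.1 and 2.25. They were 1.77 and 1.04 with the shorter peak lists, 1.77 and 0.776 with the strongest 50% of peaks, and 1.77 and 1.57 for peaks over 2500 bp from every start site. In the windows of the members the distal peaks had a median signal of 0.771 and 1.01, beside 0.505 and 0.733 over all distal peaks.

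Footprints were counted in the same windows, 259 in replicate 1 and 149 in replicate 2. Per 100 kb, the Aldoc window had the most in both libraries (73.6 and 31.2), followed by that of Gfap (54.1 and 26.1) in replicate 1, while that of Aqp4 had the fewest (9.76 and 3.25). These counts include footprints at neighbouring genes. In the Aldoc window most lay at or near the starts of Pigs and Unc119, and in the Gfap window the peak at the Ccdc103 start held 9 and 6. The members' median was 29.8 and 18.3 per 100 kb, beside 20.6 and 13.7 over all genes. Of the members' footprints 89.2% and 94% lay inside peaks, against 85.5% and 87.8% over all footprints, and 35.9% and 63.8% overlapped a footprint of the other library, against 37.3% and 60.3% over all footprints. Slc1a2 was the only member with more footprints in replicate 2 (34) than in replicate 1 (28).

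**Figure D4:**
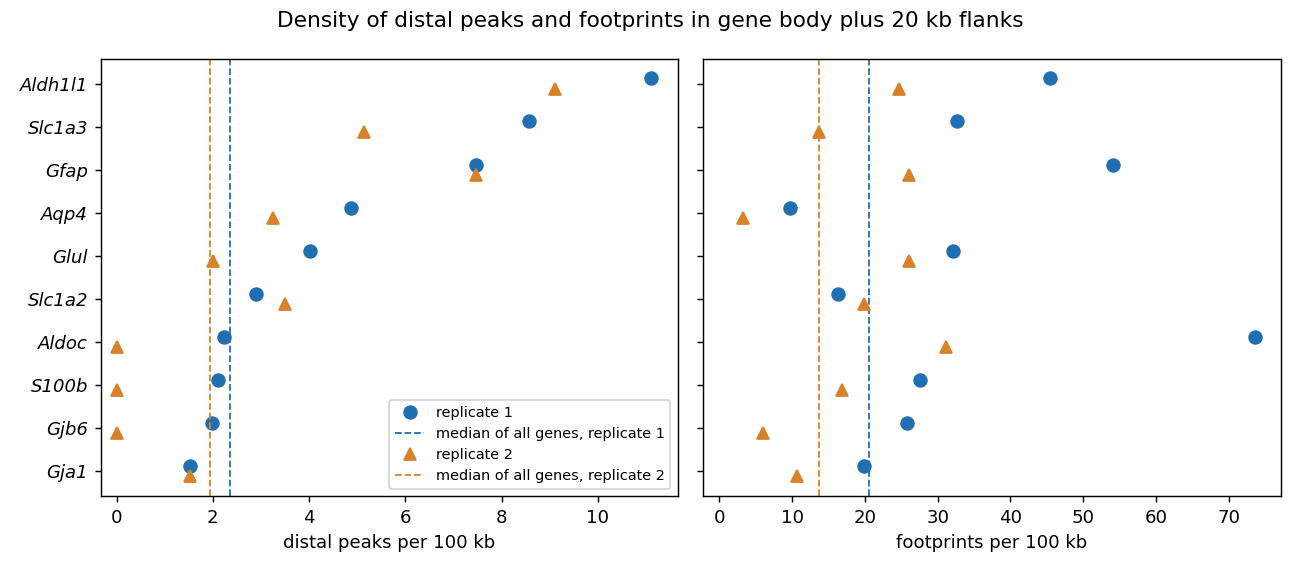
Distal peaks per 100 kb (left) and footprints per 100 kb (right) in the gene body plus 20 kb flanks of each gene, replicate 1 as circles and replicate 2 as triangles, with dashed lines at the medians of all protein-coding genes. Aldh1l1, Slc1a3, Gfap, Aqp4 and Slc1a2 lie to the right of both lines in both libraries for distal peaks, and Aqp4 lies to the left of both lines for footprints.

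Most peaks around the members recurred between libraries, as did most of all peaks. The members' windows held 81 peaks in replicate 1 and 60 in replicate 2, of which 55 (67.9%) and 54 (90%) were shared, where 64.8% and 82.9% of all peaks were. Distal peaks were shared in 30 of 45 and 30 of 34 cases (66.7% and 88.2%), beside 59.3% and 79.4% over all distal peaks. Of the 26 peaks listed only in replicate 1, 6 covered bases that were listed in the cut-rate table of replicate 2, and of the 6 listed only in replicate 2, 1 did so in the other table. These shares of 23.1% and 16.7% compare with 12.4% and 24.6% over all peaks listed in 1 library only. The signals of the 49 peaks paired 1 to 1 differed by a median log2 of -0.34 (SD 0.31, from -0.92 to 0.54), beside -0.25 (SD 0.32) over all pairs.

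Matches to 18 consensus sequences were searched on both strands in the peaks of the members that did not belong to another gene's start, 68 in replicate 1 and 53 in replicate 2. The words were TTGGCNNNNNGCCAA for the palindromic NFI site, TTGGCA for its single arm, ACAATG and likewise ACAAAG for SOX factors, TTCNNNGAA for STAT factors, TGANTCA for AP-1, TGACGTCA for CRE, CAGCTG for the E-box, CCACNAGNNGGC for the core of CTCF, GTTNCCNNGGNAAC for RFX, GGGCGG for SP/KLF, GCGCNTGCGC for NRF1, CCGGAA for ETS, TATAAA for the TATA box, CCAAT for the box of that name, TGGGAA for RBPJ, GGAATG for TEAD and TAATTA for LHX. The palindromic NFI site holds 5 of the 6 letters of its single arm, and the single arm can share letters with CCAAT. In all, 26 of 119 matches in replicate 1 and 14 of 74 in replicate 2 were under a footprint, meaning that it covered at least 0.5 of the word. These shares, 21.8% and 18.9%, lay beside 24.6% and 21.5% over all peaks. The CTCF core had 4 matches in each library, all under footprints in both, at the Gfap start, upstream of Glul, and at 2 places around Aldh1l1. Those around Aldh1l1 were in an intron and beyond its 3′ end, inside Slc41a3. Over all peaks 90.4% and 79.6% of CTCF matches were under footprints, and 4.35% and 4.89% of peaks held one. The single-arm NFI site occurred in 15 and 10 of the members' peaks (22.1% and 18.9%), beside 15.5% and 15.2% of all peaks, with 5 of 15 and 2 of 11 matches under footprints, where 23.2% and 17.8% were over all peaks. The STAT word had 9 and 2 matches, with 0 under footprints in either library, where 10.2% and 7.65% were over all peaks.

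Words within 1 mismatch of the CTCF core, counted over its 9 spelled letters, were then read, a choice made after the data had been seen. They occurred in 13 of the members' 68 peaks and 13 of the 53, and all of these words were under footprints in the library concerned and in the other one. Of them 5 lay in the window of Aldh1l1, 4 in the downstream stretch of Slc1a3, 2 in the window of Slc1a2, and 1 each in those of Gfap and Glul, while Aqp4, Gja1, Gjb6, Aldoc and S100b had 0. Some lay inside other annotated genes. Among these were the Aldh1l1 words beyond its 3′ end, inside Slc41a3, the Glul word, inside Teddm2, and an intronic word of Slc1a2. As a share of peaks this was 19.1% and 24.5%, where 13.4% and 12.8% of all peaks held such a word under a footprint, and among peaks with such a word 66.7% and 59.7% had it covered. Such words were more frequent in strong distal peaks over the whole data. Among distal peaks in the highest 20% by signal, 43.6% and 46.4% of all peaks held one under a footprint, and 9 of 18 and 6 of 10 of the members' did. In the remaining 80% 9.55% and 8.53% of all distal peaks and 2 of 27 and 5 of 24 of the members' did. A match describes letters and does not show which protein was bound.

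Other astrocyte genes were read from 3 further lists. Over all protein-coding genes, 66.1% of promoters were open in replicate 1, 63.3% in replicate 2 and 62.8% in both. Of 16 transport and metabolism genes, 15 promoters were open in replicate 1 and 14 in replicate 2. Gys1, which encodes glycogen synthase, was highest at 12.6 and 16.1, and Glud1, which encodes glutamate dehydrogenase, followed at 4.62 and 5.89. Slc7a10, an amino acid transporter gene, had no promoter peak in either library. All 20 secreted and surface genes were open in both, led by Clu (4.50 and 7.05), which encodes clusterin, and Cst3 (4.31 and 5.20), which encodes cystatin C, with Chrdl1 lowest at 0.422 and 0.271. All 16 regulators were open in both, led by Stat3 (9.19 and 11.5) and Zbtb20 (8.64 and 10.3), with Rfx4 lowest at 0.734 and 0.902. The median promoter signal was 3.08 and 3.48 for the regulators, 1.95 and 1.98 for transport and metabolism and 1.42 and 1.83 for the secreted and surface genes, counting a closed promoter as 0. The medians given above for the members and for all genes are over open promoters only, a different measure.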

How the data were processed

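The 2 DNase-seq libraries of 1 group were used as deposited. For each library the authors deposited peaks in 2 lists, footprints, and local cut rates, made from its own filtered alignments on mm10, per the file headers and the text files beside them. The aligner, callers and thresholds, not given in the sources used here, could not be checked. Each signal value is as the authors deposited it, never negative and of unstated scaling. The deposited p-value type of measure is the false discovery rate of the cut rate, and every footprint was deposited with the same value, 0.01, so footprints were not ranked.

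The longer peak list of each library (104654 and 81654 peaks, against 60430 and 47499) was set against GENCODE M21, and sequence came from GRCm38.p6. The scripts used Python 3.11.15, pandas 2.3.3 and numpy 2.4.6, and their interval functions were tested on simulated data. Start windows were 500 bp, distal peaks lay over 1000 bp from every start site and flanks were 20 kb. No test was run. The members, lists and motifs were chosen with earlier results of these data known. Named besides the 10 members were neighbours whose start carried the strongest peak of a window and, from each further list, the 2 highest, the lowest and any gene open in 1 library. Gjb2, Unc119, Slc41a3, Mir8114, Teddm2, Klf15 and Gm45901 were named after their values or positions were seen. A gene of the further lists is not reported here. Alternatives were other windows, flanks, peak lists and overlaps, and leaving out each library.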

Additional observations from a re-analysis of the deposited data

How the results depend on the processing

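The number of members with an open promoter in both libraries (8) stayed within 1.5 times under all settings tried, with 6 for the strongest 50% of peaks, 7 for the shorter list and 10 for a window of 2000 bp, and ranged from 8 to 10 with 1 library left out. The members' median of distal peaks per 100 kb (3.1 for the mean of both libraries) became 4.51 with no flank, 4.23 with flanks of 100 kb, and 1.77 with peaks over 2500 bp from every start site, with the shorter list and with the strongest 50% of peaks. With 1 library left out it ranged from 2.63 to 3.46. The shared percentage of the list of replicate 2 (90%) became 78.3% under 50% reciprocal overlap and 100% among the strongest 50% of peaks, outside its exact 95% binomial interval. That interval treats peaks as independent, although some of them overlap each other, and does not measure the spread between libraries. The mean number of footprints (204) became 94.5 with no flank and 427 with flanks of 100 kb, as the windows changed in length, and ranged from 149 to 259 with 1 library left out. Matches under footprints, summed over both libraries (40), became 22 when the whole word had to be covered. The count of members with a distal peak above the promoter (4) became 7 with flanks of 100 kb. It became 3 with no flank, with a promoter window of 2000 bp and with peaks over 2500 bp from every start site. Beyond length-driven changes, the cause was not tested. Of 30 alternative values of single promoters, 27 moved by less than the spread between libraries. The others were Aqp4 (1.13) and Aldh1l1 (0.776) in a window of 2000 bp, and Gja1 (0.537) at the annotated gene start alone. At the annotated gene start alone Aqp4 and Aldh1l1 fell to 0. They count among the 27 only because their spread between libraries includes the lack of a peak in replicate 2. Depth is unknown, so an unlisted peak does not show closed chromatin.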
